A study of Mus musculus with 24 samples.

Results

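The 10 genes described here act in DNA methylation, chromatin, metabolism or cytokine signalling. They are mutated in clonal haematopoiesis or act beside genes that are. They are the DNA methyltransferases Dnmt1, Dnmt3a and Dnmt3b, the methylcytosine dioxygenases Tet1, Tet2 and Tet3, and Asxl1, Ezh2, Idh1 and Jak2. They were found by symbol, 10 of the 55376 genes of the count tables, a choice made with earlier results of these data known. Bulk mRNA-seq had been made from male mice homozygous for TTPΔARE (TTPdeltaARE in the labels), a germline deletion of an AU-rich element in the 3′ UTR of Zfp36 the gene of the mRNA decay factor TTP, and from their wild-type (WT) littermates, all untreated. HSCs (LSK CD34- Flk2- CD150+) came from young WT mice (Y-WT, 4 libraries), young TTPΔARE mice (Y-TTPΔARE, 4 libraries), middle-aged WT mice (M-WT, 5 libraries) and middle-aged TTPΔARE mice (M-TTPΔARE, 3 libraries). MPP3 cells, a myeloid-biased multipotent progenitor, came from young mice only (4 Y-WT and 4 Y-TTPΔARE libraries). The study's own comparison of MPP3 cells used 1 TTPΔARE library fewer than the 4 analysed here, without naming the one left out, so a library that it dropped may be in these values. The mutation was carried by the whole animal, so the marrow around the sorted cells was mutant too, and the labels do not say whether each library came from 1 mouse, so p-values measure the spread between libraries.

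DNA methylation is copied after replication by Dnmt1 and laid down anew by Dnmt3a and Dnmt3b, and the Tet enzymes oxidise methylcytosine, which leads to its loss. The Tet enzymes need α-ketoglutarate, which Idh1 makes from isocitrate. Ezh2 is the catalytic subunit of PRC2, which places a repressive mark on histones, Asxl1 is a partner of the histone deubiquitinase Bap1 and affects PRC2, and Jak2 is the tyrosine kinase that signals for many cytokine receptors. In blood, clones of HSCs with mutations in DNMT3A, TET2, ASXL1 or JAK2 expand with age. The counts measure the level of mRNA and say nothing of mutations or of methylation itself.

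The libraries held between 24261371 and 39934554 counts. The sorted cells carried the markers of their labels: Slamf1, which encodes the CD150 of the HSC gate, averaged 59.2 CPM (counts scaled by the TMM-normalized library size) in Y-WT HSCs against 2.22 in Y-WT MPP3 cells, and Mpo, a granule enzyme of myeloid progenitors, averaged 3.65 against 638 CPM. Zfp36 was higher in each TTPΔARE group (means 95.5 to 101 CPM) than in its WT group (28.6 to 52.6 CPM), without overlap. The Y-TTPΔARE MPP3 library of replicate 4 stood apart for several of the 10 genes, and results that rest on it are given with and without it. Reads on 1971 olfactory and vomeronasal receptor genes summed to 64.4 to 1015 CPM in Y-WT HSCs against 20.5 to 482 CPM in the other groups. Genes of other cell types were detected in every group, with 3 plasma cell genes at a summed level of 331 to 5502 CPM.

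All 10 genes were well measured in every library, the lowest count being 788 reads (Tet2). Levels can be set side by side between genes only per length, so CPM were divided by the merged exon length in kb. On this scale Dnmt1 (28.7 CPM per kb), Jak2 (28.0) and Idh1 (24.1) were the highest of the 10 in Y-WT HSCs, and each overlapped the next in range over the 4 libraries. Dnmt3b followed at 18.6 CPM per kb, clear of its neighbours on either side. Asxl1 (9.81) and Ezh2 (8.98) overlapped each other, and Dnmt3a (5.81) and Tet1 (4.30) each stood clear of the next. Tet2 (2.81) and Tet3 (2.49) were lowest and overlapped. In Y-WT MPP3 cells Dnmt1 was at 81.1 CPM per kb, clear of Dnmt3b (32.3), Jak2 (25.2), Ezh2 (24.2) and Idh1 (21.1), which overlapped in turn. With the longest annotated transcript as the length Dnmt1 was first in each of the 6 groups, and Ezh2, whose longest transcript (2787 bases) is much shorter than its merged exons (6678 bases), rose to rank 2 in both MPP3 groups. Dnmt3a, Dnmt3b, Tet2, Tet3, Asxl1 and Ezh2 overlap antisense genes, whose reads cannot be told apart from theirs because the strand setting of the counting is not given in the sources used here.

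**Figure D1:**
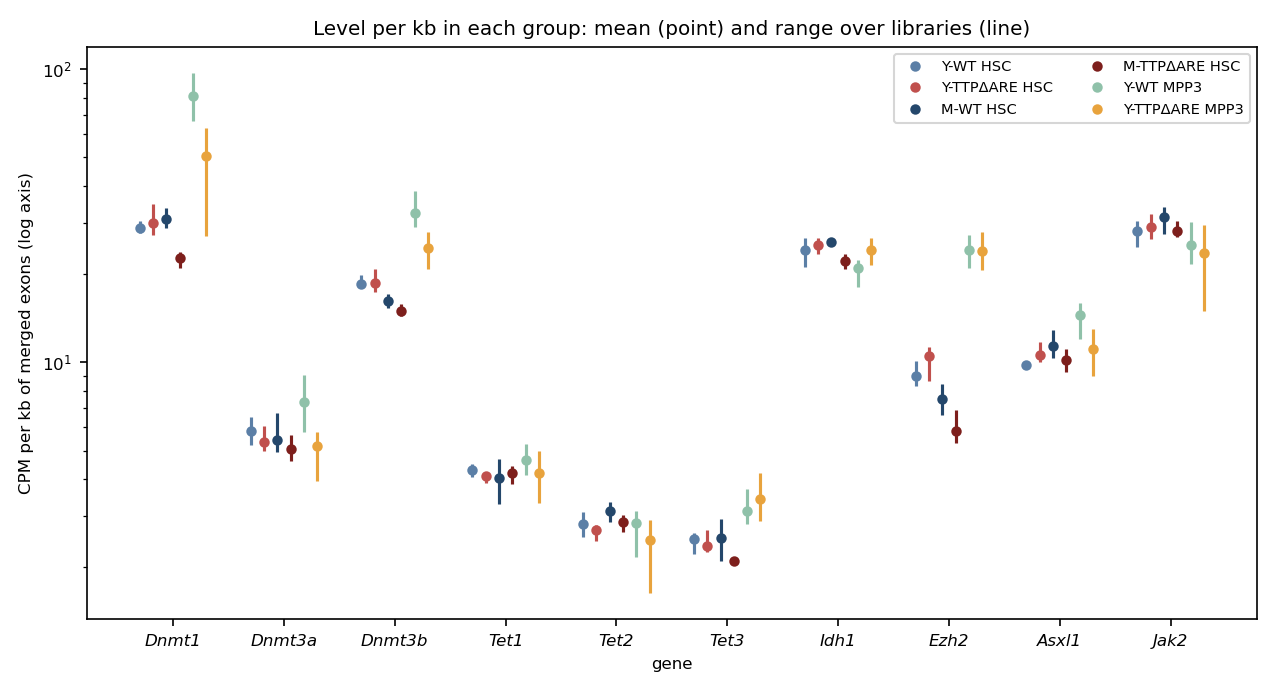
Level of each gene in CPM per kb of merged exons (log axis) in the 6 groups. Points are group means and lines the range over libraries. Dnmt1 in MPP3 cells is highest, and the 3 Tet genes have the lowest means in each group.

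The ratio of the highest to the lowest group mean separated the genes. It was 4.14 for Ezh2, 3.56 for Dnmt1 and 2.15 for Dnmt3b, against 1.15 for Tet1, 1.22 for Idh1, 1.25 for Tet2, 1.32 for Jak2, 1.44 for Dnmt3a, 1.48 for Asxl1 and 1.63 for Tet3. The lowest group was M-TTPΔARE HSCs and the highest Y-WT MPP3 cells for Ezh2, Dnmt1, Dnmt3b and Dnmt3a. The median coefficient of variation within a group lay between 6.38% (Dnmt3b) and 11.8% (Dnmt3a).

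**Figure D2:**
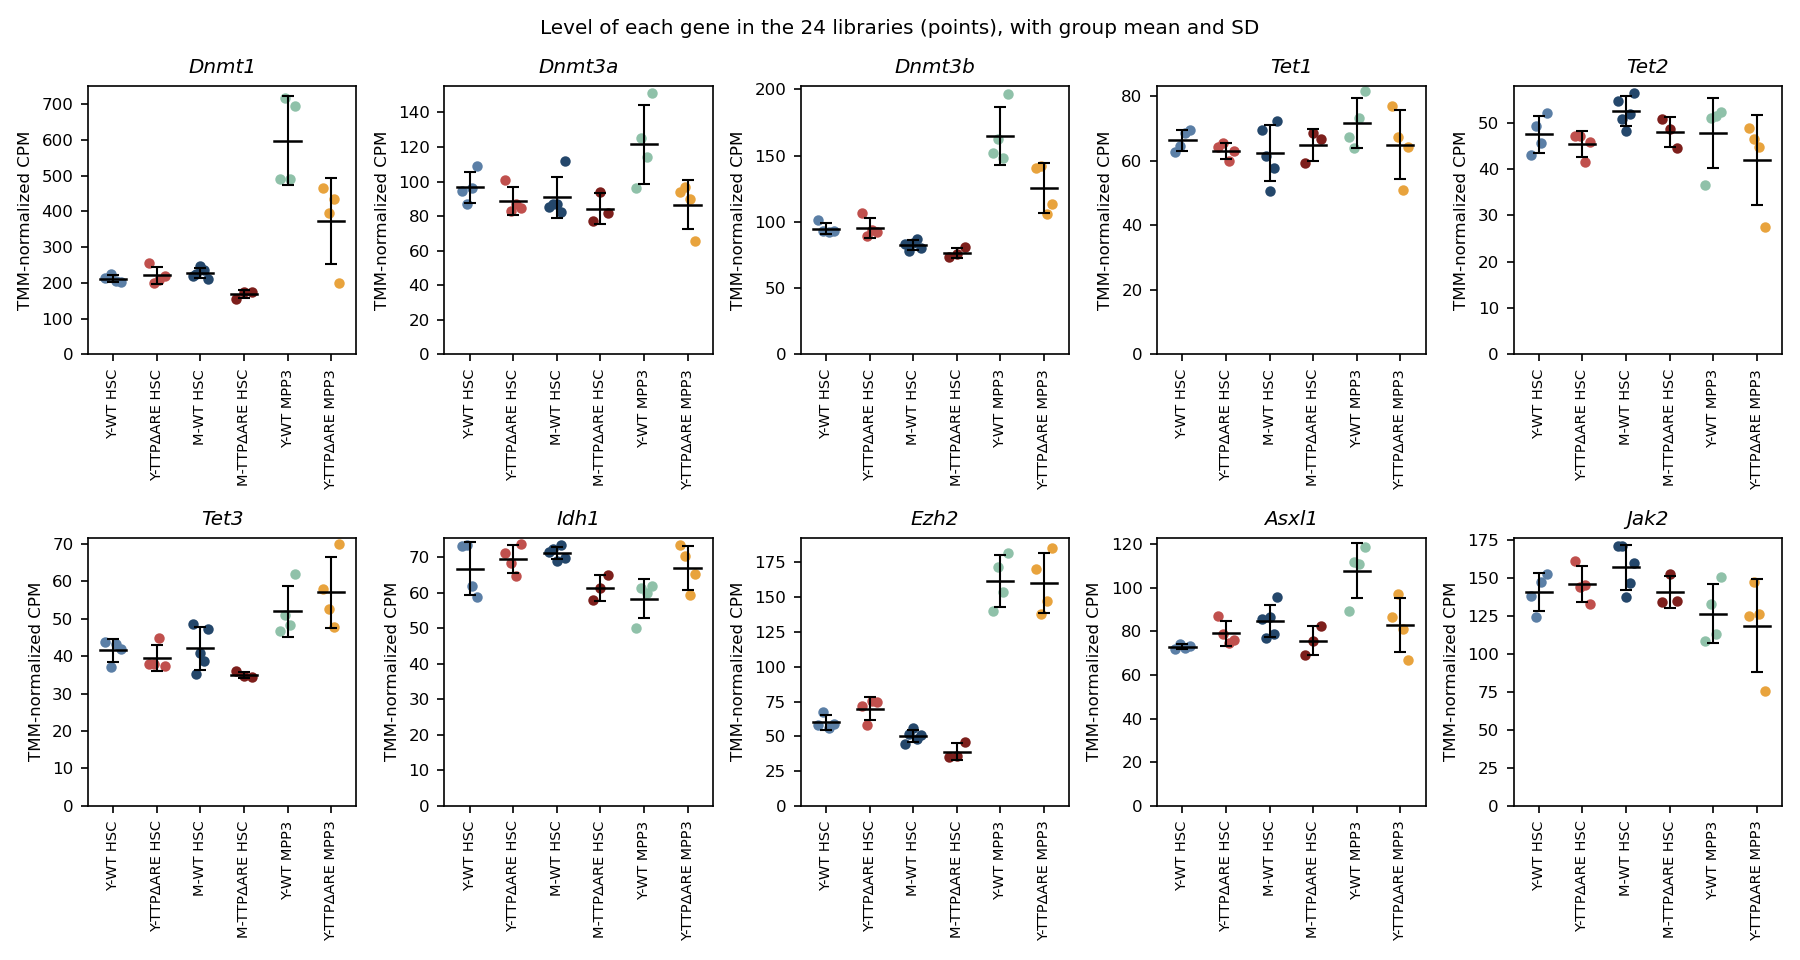
TMM-normalized CPM of the 10 genes in each of the 24 libraries, by group (points), with the group mean (long bar) and SD (error bar). Dnmt1, Ezh2 and Dnmt3b are highest in MPP3 cells, and the Y-TTPΔARE MPP3 point at 199.4 CPM is the lowest Dnmt1 value among the MPP3 libraries.

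The widest differences lay between MPP3 cells and HSCs. In young WT mice 5 of the 10 genes were higher in MPP3 cells and 0 lower: Ezh2, Dnmt1, Dnmt3b, Asxl1 and Tet3. Tet1, Tet2, Idh1 and Jak2 stayed short of the threshold, with log2 fold changes between -0.17 and 0.14, and Dnmt3a reached 0.35 (SE 0.12, adjusted p = 0.0686). Calls required 3 things: an adjusted p below 0.05 in edgeR's quasi-likelihood test, with the adjustment made over all genes that passed a count filter, more than a 1.2-fold change, and a mean log2 CPM above 1.5. Of 13433 genes over that log2 CPM, 37.7% were called, and the median log2 fold change of the 10 genes was 0.35 against 0.12 over all of these genes. In bulk libraries a smaller share of one kind of cell and less RNA per cell cannot be told apart.

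Dnmt1 (GRCm38 chr9:20907209-20959888), the enzyme that copies methylation onto newly made DNA, was at 212.4, 224.4, 205.9 and 203.8 CPM in the 4 Y-WT HSC libraries. In Y-WT MPP3 cells it was at 491.1, 716.2, 491.2 and 695.2 CPM. The groups did not overlap, and the MPP3 libraries fell into a lower and a higher pair. Its log2 fold change was 1.52 (SE 0.12, adjusted p = 4.48e-05). The same pairs differed in the summed level of 30 genes of S and M phase, which were at 6944 and 6982 CPM in the lower pair and 8890 and 8802 CPM in the higher. They also differed in receptor reads, at 204.3 and 300.5 CPM in the lower pair and 21.06 and 20.46 CPM in the higher. The part of either was not tested. In Y-TTPΔARE cells Dnmt1 was at 256.4, 200.5, 207.7 and 219.5 CPM in HSCs and at 466.3, 396.8, 435.6 and 199.4 CPM in MPP3 cells, so the fourth MPP3 library lay inside the HSC range. The difference was called at a log2 fold change of 0.77 (SE 0.23, adjusted p = 0.0449), and without that library it was 0.99 (SE 0.10, adjusted p = 1.66e-04).

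Ezh2 (chr6:47530139-47595341), the PRC2 methyltransferase, was at 57.96, 67.34, 55.68 and 59.01 CPM in Y-WT HSCs and at 139.9, 171.5, 153.5 and 181.7 CPM in Y-WT MPP3 cells. It was at 71.56, 57.85, 75.62 and 74.83 CPM in Y-TTPΔARE HSCs and at 170.2, 138.0, 147.2 and 185.3 CPM in Y-TTPΔARE MPP3 cells. All 8 MPP3 libraries lay above all 8 young HSC libraries. The log2 fold change was 1.46 (SE 0.094, adjusted p = 2.08e-05) in WT and 1.199 (SE 0.13, adjusted p = 1.84e-04) in TTPΔARE, and it was called under each alternative tried in both genotypes.

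Dnmt3b (chr2:153649450-153687730), a de novo methyltransferase, was at 101.1, 92.85, 92.07 and 92.88 CPM in Y-WT HSCs and at 151.7, 162.8, 147.9 and 196.3 CPM in Y-WT MPP3 cells. In TTPΔARE the HSC libraries were at 106.4, 88.96, 93.88 and 92.5 CPM and the MPP3 libraries at 140.4, 142.4, 106.0 and 113.3 CPM. The WT groups did not overlap, whereas 1 TTPΔARE MPP3 library at 106.0 CPM lay just under the highest HSC library. The log2 fold change was 0.82 (SE 0.097, adjusted p = 3.64e-04) in WT and 0.40 (SE 0.11, adjusted p = 0.0335) in TTPΔARE.

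Asxl1 (chr2:153345829-153404007) was at 72.04, 74.45, 72.21 and 73.46 CPM in Y-WT HSCs and at 89.52, 112.0, 110.8 and 118.7 CPM in Y-WT MPP3 cells, without overlap, a log2 fold change of 0.59 (SE 0.090, adjusted p = 0.00147). In TTPΔARE it was at 87.11, 79.02, 74.6 and 75.88 CPM in HSCs and at 86.68, 96.95, 81.01 and 67.02 CPM in MPP3 cells. These groups overlapped, and the log2 fold change was 0.073 (SE 0.12, adjusted p = 0.787).

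Tet3 (chr6:83362373-83459084), a dioxygenase that acts on methylcytosine, was called in both genotypes. It was at 43.83, 37.0, 43.37 and 42.04 CPM in Y-WT HSCs and at 46.86, 50.99, 48.22 and 61.85 CPM in Y-WT MPP3 cells, without overlap. Its log2 fold change was 0.35 (SE 0.10, adjusted p = 0.0319). In TTPΔARE it was at 37.84, 37.82, 44.86 and 37.52 CPM in HSCs and at 57.92, 52.74, 47.92 and 69.95 CPM in MPP3 cells, again without overlap, with a log2 fold change of 0.53 (SE 0.13, adjusted p = 0.0170). The WT call was lost when Y-WT HSC replicate 3 or Y-WT MPP3 replicate 1 or 2 was left out (adjusted p = 0.0692, 0.0553 and 0.0582), without the count filter (0.117) and with receptor reads as a covariate (0.177), over a range of 0.00985 to 0.177 under the alternatives.

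In TTPΔARE 4 of the 10 genes were called higher in MPP3 cells (Ezh2, Tet3, Dnmt3b and Dnmt1) and 0 lower, where 26.2% of 13358 genes were called. The groups did not overlap for 5 of the 10 genes in WT (38.9% of all genes) and for 2 in TTPΔARE (30.9%). Same-numbered TTPΔARE libraries deviated together across the cell types, though the labels do not say that they are paired. With the replicate as a block the same 4 genes were called. Apart from Ezh2 these calls were close to the threshold. Leaving out any 1 of the 4 Y-TTPΔARE HSC libraries, or MPP3 replicate 1 or 2, left 1 or 2 of the 4 calls, and adjusted p then rose to at most 0.132 for Dnmt1, 0.118 for Dnmt3b and 0.143 for Tet3, each log2 fold change staying positive. Without MPP3 replicate 3 Dnmt1 was at an adjusted p of 0.0860. Without MPP3 replicate 4 all 4 were called. In WT leaving out Y-WT HSC replicate 1 or 4 or Y-WT MPP3 replicate 1 added Dnmt3a (adjusted p = 0.0492, 0.0285 and 0.0460).

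**Figure D3:**
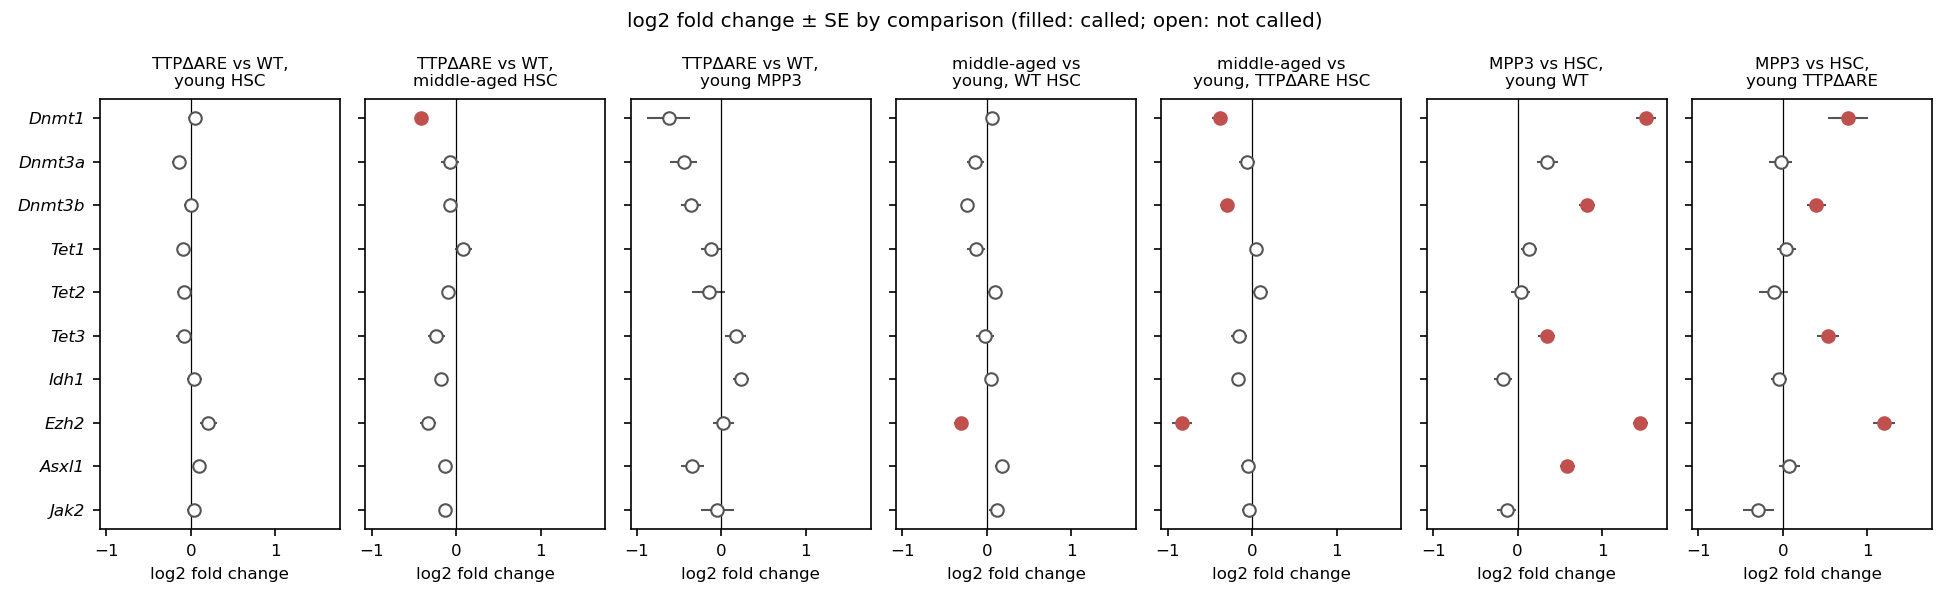
Log2 fold change of each gene (point) with its SE (bar) in 7 comparisons; filled points were called and open points were not. The filled points lie to the right in both MPP3 against HSC panels and to the left in the age panels and in middle-aged HSCs.

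The other genes of these pathways moved as follows between MPP3 cells and HSCs. Of 29 other DNA methylation genes over the log2 CPM limit, 15 were higher and 2 lower in WT, and 9 higher and 3 lower in TTPΔARE. Over all genes 24.7% were higher and 13.1% lower in WT, and 14.6% higher and 11.6% lower in TTPΔARE. Uhrf1, which brings Dnmt1 to newly replicated DNA, rose from 92.7 ± 6.07 to 344 ± 63.1 CPM (SD, n = 4 each) in WT, and Hells, a chromatin remodeller needed for methylation, from 49.5 ± 7.33 to 144 ± 25.4 CPM. Tdg, the glycosylase that removes the products of the Tet enzymes, rose from 31.7 ± 2.18 to 60.6 ± 8.33 CPM. Gadd45g fell in both genotypes (log2 fold changes -3.01 and -2.02).

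Of 22 PRC2 and Asxl partners, 12 were higher and 1 lower in WT and 7 higher and 2 lower in TTPΔARE. The PRC2 core subunits Suz12 (0.77 and 0.41) and Eed (0.63 and 0.52) rose in both genotypes on the log2 scale, and Phf1 fell (-0.92 and -0.72). The 44 other genes of clonal haematopoiesis gave 24 higher and 2 lower in WT and 13 higher and 2 lower in TTPΔARE. Flt3, a receptor of multipotent progenitors, was the top gene of this list and rose by 3.32 and 3.40, while Gata2 fell (-0.87 and -1.33). Of the JAK-STAT partners 5 of 29 were higher and 9 lower in WT, and 4 of 28 higher and 8 lower in TTPΔARE, among them Socs2 (-2.99 and -2.62) and Epor (-2.88 and -2.64). Csf3r, the G-CSF receptor, rose by 1.30 and 1.14. Some genes stand on more than 1 of these lists.

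All 30 genes of S and M phase were higher in MPP3 cells in both genotypes, with a median log2 fold change of 1.55 in WT and 1.29 in TTPΔARE. Their summed level was 2436 to 3087 CPM in Y-WT HSCs against 6944 to 8890 in Y-WT MPP3 cells, and 2426 to 3217 against 5652 to 7154 CPM in TTPΔARE. This cell cycle difference moved with Dnmt1, Ezh2 and Dnmt3b, and its part in their difference was not tested. Genes listed as markers of other cell types moved too. Those of the endothelial list were lower in MPP3 cells, 4 of 4 over the log2 CPM limit in WT and 3 of 3 in TTPΔARE. The 4 listed summed to 168 to 344 CPM in HSCs against 53.6 to 67.8 in MPP3 cells in WT. In TTPΔARE the sums were 164 to 186 against 36.6 to 47.8 CPM. In Y-WT HSCs Tek averaged 113 CPM, Kdr 75.2, Emcn 51.7 and Cdh5 13.6. Which cells these reads came from was not tested. Of T cell genes 2 of 4 were lower and 1 higher in WT and 3 of 6 lower in TTPΔARE, and of mature myeloid genes 1 of 4 was higher in WT and 4 of 5 in TTPΔARE. The part of these was not tested either. In Y-TTPΔARE MPP3 replicate 4 Dnmt1 did not follow the S and M phase genes, whose summed level was 6790 CPM beside the lowest Dnmt1 of the 8 MPP3 libraries.

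**Figure D4:**
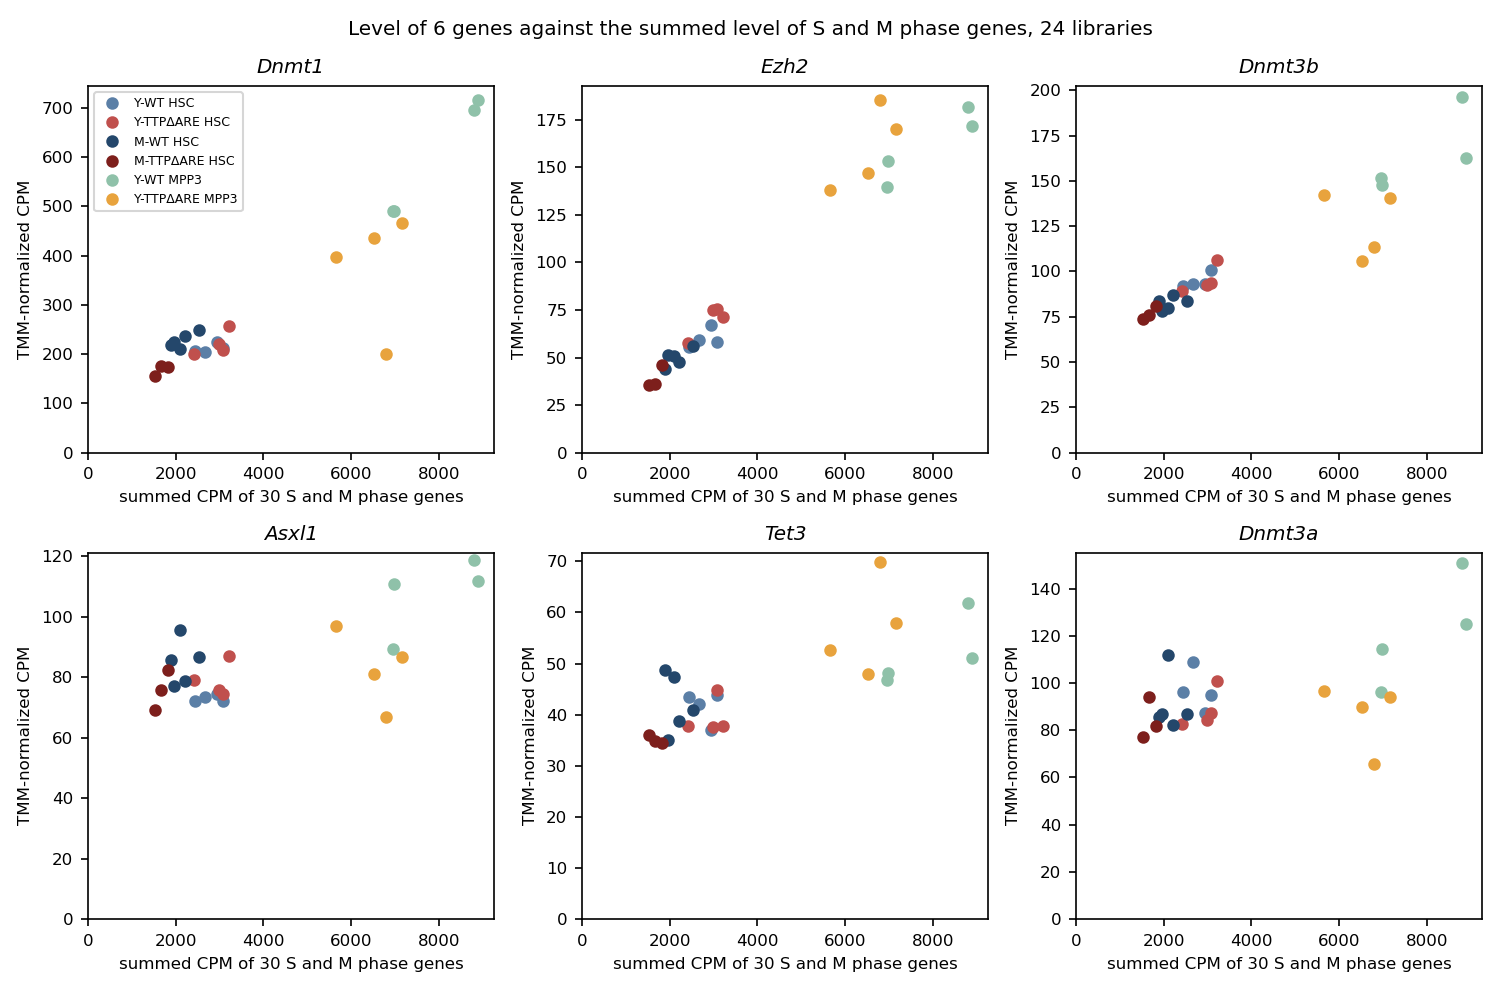
CPM of 6 genes (vertical axes) against the summed CPM of 30 S and M phase genes (horizontal axes) in 24 libraries, coloured by group. For Dnmt1, Ezh2 and Dnmt3b the MPP3 libraries lie up and to the right of the HSC libraries, apart from the Y-TTPΔARE MPP3 library with Dnmt1 at 199.4 CPM and a summed level of 6790 CPM.

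The promoters of Dnmt1, Ezh2 and Asxl1 are shown because they were the 3 of the 10 genes whose promoter held a match to the E2F-type motif TTTNNCGC, read on either strand, and all 3 were higher in Y-WT MPP3 cells. RefSeq windows (GRCm38.p6) run from 250 bases before to 50 bases after a transcription start, 10 of 10 genes had at least 1, and where a gene had several the window with most CG dinucleotides was taken. Of 32851 windows of this length, which were not chosen by CG, 5.17% held the motif, so the 2 are not alike. The matches are in capitals. The window of Dnmt1 (chr9:20952574-20952873, minus strand) was 1 of 3 for the gene and held 3 matches, of which 2 overlap. The other Dnmt1 windows held 0 matches. That of Ezh2 (chr6:47594981-47595280, minus strand) held 1, just after the start, and that of Asxl1 (chr2:153345580-153345879, plus strand) held 1.
Dnmt1: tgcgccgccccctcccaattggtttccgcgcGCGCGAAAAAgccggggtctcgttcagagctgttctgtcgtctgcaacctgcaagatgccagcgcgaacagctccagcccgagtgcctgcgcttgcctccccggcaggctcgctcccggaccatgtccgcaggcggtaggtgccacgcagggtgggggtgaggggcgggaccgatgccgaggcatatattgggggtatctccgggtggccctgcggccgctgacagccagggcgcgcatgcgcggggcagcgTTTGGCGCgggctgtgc
Ezh2: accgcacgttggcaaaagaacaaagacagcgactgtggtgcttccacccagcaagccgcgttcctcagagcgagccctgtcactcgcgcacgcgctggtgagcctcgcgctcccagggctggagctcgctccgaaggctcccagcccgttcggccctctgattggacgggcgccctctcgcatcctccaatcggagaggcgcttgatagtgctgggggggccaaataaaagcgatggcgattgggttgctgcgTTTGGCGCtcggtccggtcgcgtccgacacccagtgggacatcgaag
Asxl1: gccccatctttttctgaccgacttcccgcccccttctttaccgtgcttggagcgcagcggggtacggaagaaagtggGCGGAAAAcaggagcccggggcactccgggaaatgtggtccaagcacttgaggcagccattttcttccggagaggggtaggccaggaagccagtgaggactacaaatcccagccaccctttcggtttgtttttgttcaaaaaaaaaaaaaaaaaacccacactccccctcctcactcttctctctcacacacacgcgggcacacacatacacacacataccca
The Dnmt1 and Ezh2 windows also held 3 matches each to CCAAT (either strand), which 4 of the 10 genes and 37.4% of all windows held. Each of the 10 genes had more CG dinucleotides in its window than the median window, from 13 (Asxl1) to 57 (Tet2) in 300 bases against 7. For genes with several windows the choice by CG itself raised this number, and the other Dnmt1 windows held 2 and 12. Dnmt3b and Tet3, also higher in MPP3 cells, held no match to the E2F-type motif. A match is a string of letters and not a measured binding site.

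In young HSCs none of the 10 genes was called between TTPΔARE and WT. The count was 0, where 0.0435% of 13786 genes were called by the edgeR test. An unadjusted p under 0.05 was found for 0 of the 10 and for 1414 of the 13786 genes. DESeq2 also called 0 of the 10, and 304 of 13782 genes. The log2 fold changes ran from -0.14 (Dnmt3a) to 0.21 (Ezh2, SE 0.10, adjusted p = 0.708). Asxl1 was the 1 gene whose groups did not overlap (5.19% of all genes), the 4 TTPΔARE libraries lying above 74.45 CPM, the highest WT library. Zfp36 itself, the targeted gene, had a log2 fold change of 0.96 (SE 0.21) at an adjusted p of 0.238 in this comparison. A change near that size was thus not called at that SE. The SEs of the 10 genes were smaller, from 0.068 (Asxl1) to 0.10 (Ezh2), so Zfp36 does not show what size of change could be missed in them. The study reported Zfp36 as significantly higher in young TTPΔARE HSCs, and called many more genes there.

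Of the other lists, none of the genes of DNA methylation, clonal haematopoiesis, PRC2, JAK-STAT or S and M phase was called in young HSCs. The S and M phase genes leaned to higher values in TTPΔARE (24 of 30 positive, median log2 fold change 0.10 against 0.029 over all genes). Their summed level was 2426 to 3217 CPM in TTPΔARE and 2436 to 3087 CPM in WT. The genotypes overlapped in this sum.

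In middle-aged HSCs Dnmt1 was lower in TTPΔARE. It was at 218.8, 225.2, 248.4, 235.8 and 211.2 CPM in M-WT and at 154.9, 174.9 and 173.8 CPM in M-TTPΔARE. The highest mutant library lay below the lowest WT library, and the log2 fold change was -0.41 (SE 0.067, adjusted p = 0.0136). It was the 1 gene of 10 that was called, where 2.22% of 13413 genes were. The study's supplementary list of ageing genes holds Dnmt1 but marks no significant change of it in TTPΔARE HSCs of either age. The study's own analysis therefore did not call it. The call was lost without M-TTPΔARE replicate 1 (adjusted p = 0.0550) or replicate 3 (0.0547), with receptor reads as a covariate (0.0518) and with all 24 libraries in the fit (0.539), in a range of 1.63e-07 to 0.539 over the alternatives, while the log2 fold change stayed between -0.46 and -0.36.

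Ezh2 was at 44.19, 51.4, 56.28, 47.78 and 50.67 CPM in M-WT and at 35.34, 36.06 and 45.82 CPM in M-TTPΔARE. The groups overlapped through a single library on each side, and the log2 fold change of -0.33 (SE 0.097) was not called by edgeR (adjusted p = 0.122) and was called by DESeq2 (0.0216) and without the count filter (0.0375), over a range of 0.0216 to 0.653. Idh1, the source of α-ketoglutarate in the cytosol, was at 69.04 to 73.43 CPM (median 71.52) in M-WT and at 57.92, 61.3 and 65.11 CPM in M-TTPΔARE, without overlap, a log2 fold change of -0.18 (SE 0.058, adjusted p = 0.154). Groups did not overlap for 2 of the 10 genes, Dnmt1 and Idh1, and for 13.2% of all genes.

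The other 7 genes had log2 fold changes between -0.23 (Tet3, adjusted p = 0.304) and 0.087 (Tet1). Of the 10, 9 had a negative log2 fold change, with a median of -0.13 against -0.031 over all genes tested. Of 30 S and M phase genes 3 fell, the replication factors Gins2 (-0.34), Mcm6 (-0.41) and Mcm3 (-0.39), and 27 of 30 had a negative value (median -0.30). Their summed level was 1531 to 1825 CPM in M-TTPΔARE against 1898 to 2523 CPM in M-WT, so it was lower in each mutant library, beside Dnmt1, and its part was not tested. The sort marker Cd34 was lower too (119 ± 15.1 against 202 ± 18.7 CPM, n = 3 and 5) and Procr higher (320 ± 21.2 against 250 ± 19.1 CPM).

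Around Jak2 (chr19:29251828-29313080), which was at 134.7, 152.9 and 134.8 CPM in M-TTPΔARE and 137.8 to 171.1 CPM (median 159.8) in M-WT and was not called, 5 of 28 JAK-STAT partners fell. Socs3, a feedback inhibitor of the pathway, had a log2 fold change of -1.83 (SE 0.33, adjusted p = 0.0222), the kinase Pim2 -1.05, Csf3r -0.82 and Jak3 -0.44. None of 29 other DNA methylation genes and none of 22 PRC2 and Asxl partners was called. Csf3r was the 1 of 44 other clonal haematopoiesis genes that was lower.

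In MPP3 cells none of the 10 genes was called between TTPΔARE and WT, where 2.54% of 12856 genes were. An unadjusted p under 0.05 was found for 5 of the 10 and for 1948 of the 12856 genes. Dnmt1 averaged 375 ± 120 CPM in TTPΔARE and 598 ± 124 CPM in WT (SD, n = 4 each) and its groups did not overlap, the highest mutant library (466.3 CPM) lying below the lowest WT library (491.1 CPM). The log2 fold change was -0.63 (SE 0.25, adjusted p = 0.349), and -0.43 (SE 0.14, adjusted p = 0.221) without replicate 4 of TTPΔARE. Dnmt3b did not overlap either (106.0 to 142.4 against 147.9 to 196.3 CPM), with a log2 fold change of -0.36 (SE 0.12, adjusted p = 0.243) that DESeq2 called (0.0371). These were 2 of 10 genes without overlap, against 8.69% of all genes.

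Dnmt3a (chr12:3806007-3914443), the other de novo methyltransferase and the gene most often mutated in clonal haematopoiesis, was at 94.17, 96.68, 89.66 and 65.76 CPM in Y-TTPΔARE MPP3 cells and at 96.13, 124.9, 114.2 and 151.0 CPM in Y-WT. A single mutant library reached into the WT range, at a log2 fold change of -0.45 (SE 0.16, adjusted p = 0.291). Asxl1 had -0.34 (SE 0.14, adjusted p = 0.346) and Idh1 0.23 (SE 0.10, adjusted p = 0.392). With all 24 libraries in the fit, which share 1 estimate of the spread, Dnmt1, Dnmt3a, Dnmt3b and Asxl1 were called lower (adjusted p = 0.00964, 0.0187, 0.00531 and 0.0129). That fit called 1244 of 13595 genes over the log2 CPM limit, 580 of them lower. Ezh2 was at 0.021 (SE 0.12) and Tet1, Tet2, Tet3 and Jak2 between -0.15 and 0.17.

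The companion lists likewise gave 0 called genes of DNA methylation, clonal haematopoiesis, PRC2, JAK-STAT and S and M phase. Without replicate 4 of TTPΔARE the lists other than JAK-STAT stayed at 0, and the JAK-STAT partner Bcl2l1, an inhibitor of apoptosis named after its value was seen, fell (log2 fold change -0.47, adjusted p = 0.0271). S and M phase genes leaned lower (25 of 30 negative, median -0.24), with a summed level of 5652 to 7154 CPM in TTPΔARE and 6944 to 8890 CPM in WT. The 6 genes of mature myeloid cells summed to 597 to 862 CPM in TTPΔARE against 413 to 490 CPM in WT, and Elane, an enzyme of granulocyte precursors, rose from 21.6 to 124 CPM. What part these had in the lower Dnmt1, Dnmt3a and Dnmt3b values was not tested.

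With age Ezh2 fell in HSCs of both genotypes. In WT it went from 55.68 to 67.34 CPM over 4 young libraries to 44.19 to 56.28 CPM over 5 middle-aged ones, the ranges meeting at 1 library on each side. The log2 fold change was -0.30 (SE 0.082, adjusted p = 0.0273). In TTPΔARE it went from 57.85 to 75.62 CPM to 35.34 to 45.82 CPM, without overlap, at -0.83 (SE 0.12, adjusted p = 0.00154), and this call held under each alternative. The WT call did not hold without M-WT replicate 1, 2 or 5 or Y-WT replicate 2 or 4 (adjusted p = 0.0514 to 0.0905), nor with receptor reads as a covariate (0.283), and it held in 2 of 7 settings that kept all libraries, with a range of 0.00226 to 0.283.

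Ezh2 was the 1 of 10 genes called in WT, where 19.7% of 13648 genes were called. Dnmt3b passed the p limit but not the fold limit (92.07 to 101.1 CPM in young and 78.33 to 87.04 CPM in middle-aged HSCs, log2 fold change -0.24, SE 0.055, adjusted p = 0.0138), and without M-WT replicate 4 it passed both. Dnmt1 was not called with age in WT (211.6 ± 9.28 and 227.9 ± 14.6 CPM, n = 4 and 5, log2 fold change 0.066, SE 0.059, adjusted p = 0.443). Asxl1 was at 77.16 to 95.64 CPM in the 5 M-WT libraries, above the young range, but the log2 fold change of 0.17 (SE 0.071, adjusted p = 0.102) was not called. Groups did not overlap for 2 of the 10 genes, Dnmt3b and Asxl1, against 22.6% of all genes.

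In TTPΔARE 3 of 10 genes were lower in middle-aged than in young HSCs, Ezh2, Dnmt1 and Dnmt3b, where 14.2% of 13533 genes were called in either direction. Dnmt1 went from 221 ± 24.9 to 168 ± 11.3 CPM (n = 4 and 3, log2 fold change -0.38, SE 0.088, adjusted p = 0.0214) and Dnmt3b from 95.5 ± 7.62 to 76.7 ± 3.67 CPM (-0.30, SE 0.075, adjusted p = 0.0298). Neither overlapped, nor did Ezh2 and Tet3, which made 4 of the 10 genes against 26.3% of all genes. Dnmt1 and Dnmt3b were not called without any 1 of the 3 M-TTPΔARE libraries (adjusted p = 0.0724 to 0.228), and Dnmt3b also not without Y-TTPΔARE replicate 1 (0.0719) or 3 (0.0501). With the likelihood ratio test they were at 0.0543 and 0.112, Dnmt1 was also not called with all 24 libraries in the fit (0.246) nor Dnmt3b without the count filter (0.0705), in ranges of 1.17e-04 to 0.246 for Dnmt1 and 9.67e-04 to 0.228 for Dnmt3b over the alternatives.

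S and M phase genes were lower with age in 22 of 30 cases in WT and 29 of 30 in TTPΔARE (median log2 fold changes -0.59 and -1.06). The summed level fell from 2436 to 3087 CPM to 1898 to 2523 CPM in WT and from 2426 to 3217 CPM to 1531 to 1825 CPM in TTPΔARE. In WT this came beside a Dnmt1 mean that was slightly higher in middle-aged HSCs. Uhrf1 fell in both genotypes (-0.47 and -1.004), as did Hells (-0.49 and -0.78) and the methyl-CpG binding protein Mbd2 (-0.48 and -0.58), while Gadd45g rose (0.96 and 0.90). Of the PRC2 genes Ezh1, the paralogue of Ezh2 that is used more in resting cells, rose from 107 ± 20.6 to 163 ± 13.4 CPM in WT and from 114 ± 17.6 to 183 ± 7.12 CPM in TTPΔARE. In all, 3 DNA methylation genes rose and 3 fell in WT, and 1 rose and 4 fell in TTPΔARE, of 29 each. PRC2 and Asxl partners gave 4 of 22 higher and 0 lower, and 2 higher and 1 lower (Eed, -0.46). Over all genes 13.7% were higher and 6.03% lower with age in WT, and 8.58% higher and 5.59% lower in TTPΔARE. Over both directions 19.7% and 14.2% of all genes were called. The counts of the DNA methylation list and of the PRC2 and Asxl list were close to these shares, and those of the S and M phase list far above.

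Among JAK-STAT partners 10 of 28 were higher and 1 lower with age in WT, and 4 higher and 1 lower in TTPΔARE, with Jak2 itself at 0.12 and -0.041 (adjusted p = 0.366 and 0.876). Stat3 rose by 0.57 and 0.37 and Jak3 by 0.56 and 0.34, and the shared cytokine receptor chain Csf2rb fell (-0.89 and -0.45). Other clonal haematopoiesis genes gave 12 of 44 higher and 1 lower in WT, and 3 higher and 3 lower in TTPΔARE, with the splicing factor Prpf8 up (0.71 and 0.42) and Flt3 down (-1.16 and -1.04) in both. T cell genes moved with age as well: all 4 of the 6 listed that passed the log2 CPM limit were lower in WT and all 6 in TTPΔARE, the sum of the 6 being 31.1 to 56.6 CPM in Y-WT against 13.1 to 19.2 in M-WT and 49.0 to 135 CPM in Y-TTPΔARE against 17.7 to 30.6 in M-TTPΔARE. Erythroid genes were higher in M-WT (2 of 2 over the limit, Hba-a1 and Hbb-bs, the sum of the 4 listed being 4.93 to 71.1 against 4.78 to 7.29 CPM), and in TTPΔARE 1 of 3 was lower (Klf1). Endothelial genes were lower for 2 of 4 in WT (Cdh5 and Kdr, the sum of the 4 being 171 to 198 against 168 to 344 CPM) and for 1 of 4 in TTPΔARE (Cdh5), and 1 of 3 mature myeloid genes was lower in TTPΔARE (S100a8). The part of these genes in the age differences was not tested. The comparisons by age share their young and middle-aged libraries with those by genotype, so their values are not independent of each other.

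Interaction terms tested how far TTPΔARE acted differently by age or by cell type. With age none of the 10 genes was called (0.0439% of 13667 genes were). An unadjusted p under 0.05 was found for 4 of the 10 and for 2059 of the 13667 genes. DESeq2 called 2 of the 10, Dnmt1 (adjusted p = 0.00413) and Ezh2 (0.0459), and 160 of 13664 genes. By edgeR the effect on Dnmt1 was lower in middle-aged than in young HSCs by a log2 difference of -0.51 (SE 0.11, adjusted p = 0.181) and that on Ezh2 by -0.58 (SE 0.16, adjusted p = 0.224), the median over all genes being -0.11. Between MPP3 cells and HSCs none of the 10 was called (0.839% of 13467 genes were). An unadjusted p under 0.05 was found for 4 of the 10 and for 2356 of the 13467 genes. DESeq2 called 0 of the 10, and 333 of 13467 genes. The differences were -0.55 for Asxl1 (SE 0.13, adjusted p = 0.0960), -0.80 for Dnmt1 (SE 0.24, adjusted p = 0.200) and -0.46 for Dnmt3b (SE 0.14, adjusted p = 0.210), again beside a median of -0.11. Without replicate 4 of Y-TTPΔARE MPP3 they were -0.47, -0.59 and -0.42 (adjusted p = 0.248, 0.267 and 0.480).

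Tet1 (chr10:62804570-62908996), Tet2 (chr3:133463679-133545139), Idh1 (chr1:65158616-65186500), Jak2 and Dnmt3a were called in no comparison by the edgeR test fitted on its own libraries. Over the 24 libraries Tet1 lay between 50.77 and 81.68 CPM, Tet2 between 27.55 and 56.46 CPM, Idh1 between 50.19 and 73.83 CPM and Jak2 between 75.61 and 171.1 CPM. Dnmt3a lay between 65.76 and 151.0 CPM. The lowest values of Tet2, Jak2 and Dnmt3a all came from Y-TTPΔARE MPP3 replicate 4, which held the highest Ezh2 and Tet3 levels (185.3 and 69.95 CPM).

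TTP binds AU-rich elements in 3′ UTRs, so the letters TATTTAT were looked up in the longest annotated 3′ UTR of each gene (GENCODE M21, GRCm38). They were in 6 of the 10 genes, Tet1, Tet2, Tet3, Asxl1, Dnmt3a and Jak2, and in 27.6% of 21006 protein-coding genes, whose 3′ UTRs had a median of 960.5 bases. All 6 genes had 3′ UTRs longer than that median (7962 bases in Tet1, 6696 in Dnmt3a, 5669 in Tet3, 3058 in Tet2, 1934 in Asxl1 and 1232 in Jak2). The shares were not adjusted for length. Tet3 held 4 copies, Tet1 3, Tet2 2 and the others 1 each. Dnmt1, the gene called lower in M-TTPΔARE HSCs here, held none in its 312 bases. Dnmt3b (1331 bases), Ezh2 (402) and Idh1 (849) held none either. By the edgeR test on each comparison's own libraries none of the 6 genes was called between TTPΔARE and WT, and with all 24 libraries in the fit Dnmt3a and Asxl1 were called lower in TTPΔARE MPP3 cells, as given above. As examples 1 copy each from 4 of these genes is shown, with 8 bases on each side and the motif in capitals.
Tet2, chr3:133466242-133466264, minus strand: taataactTATTTATcaaagtag
Tet3, chr6:83367622-83367644, minus strand: aaaatatgTATTTATtgggtttt
Jak2, chr19:29313046-29313068, plus strand: ttgtgtgtTATTTATacaagatt
Dnmt3a, chr12:3913167-3913189, plus strand: tgcttctcTATTTATtgacagta
The letters alone do not show that TTP binds there.

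The genes whose log2 CPM followed each of the 10 most closely over the 24 libraries were taken from 13538 genes. For Ezh2 they were Rfc2 (Pearson r = 0.990) and Smc2 (0.987), for Dnmt1 Ints7 (0.982) and Pola1 (0.977), and for Dnmt3b Atad5 (0.970) and Zfp367 (0.968). Rfc2, Pola1 and Atad5 encode proteins of DNA replication. For Asxl1 they were Khsrp (0.938) and Phf6 (0.924), for Dnmt3a Phf6 (0.849) and Slc25a40 (0.847), and for Jak2 Fam117b (0.912) and Shprh (0.909). Tet2 was followed by Nhlrc3 (0.900) and Uty (0.888), Tet3 by Mxd3 (0.880) and Oxct1 (0.876), Tet1 by Cwf19l2 (0.758) and Cspp1 (0.693), and Idh1 by Nae1 (0.764) and Ccnd3 (0.719). The 24 points fall into HSC and MPP3 clusters and share library depth and quality, so these values describe the libraries and carry no test.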

How the data were processed

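Gene counts of 24 bulk mRNA-seq libraries were analysed. The deposited values are raw read counts per gene, 1 file per library. Per the submitters' processing notes the authors used cutadapt (through Trim Galore, per the paper's methods), STAR and featureCounts on mm10, and the labels and the paper name different SMARTer library kits. The strand setting and any removal of duplicate reads are likewise not given, so amplification can add to the spread between libraries. The 10 genes, the companion and marker lists and the comparisons were chosen with earlier results of these data known.

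Libraries were grouped by their titles. Each comparison was fitted on its own libraries with edgeR 4.0.16 (limma 3.58.1, R 4.3.3): genes were filtered (filterByExpr, minimum count 10, minimum total 15), scaled by TMM and tested by the quasi-likelihood F test, and p-values were adjusted (Benjamini-Hochberg) over all genes kept. Interactions were fitted on the 4 groups involved. A call required that the adjusted p was below 0.05, that the change exceeded 1.2-fold and that the mean log2 CPM exceeded 1.5, with no limit on fold for interactions, and percentages of genes called count genes over that log2 CPM. CPM were made from the counts with TMM scaling over 24 libraries. The 10 genes and Zfp36 were named throughout, the genes most like each in pattern by the highest Pearson r of log2 CPM, companion genes by the smallest p among those called (up to 3 per direction), with a few more from the lists named after their values were seen. Some genes of the lists are not reported here by name.

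Same-numbered replicates deviated together in 1 comparison, MPP3 against HSC in TTPΔARE, where all 4 pairs had a correlation of deviations over 0.1 (0.159 to 0.361). The alternatives were DESeq2 1.42.0, the likelihood ratio test, RLE scaling, no count filter, no fold or level limit, the replicate as a block, all 24 libraries in 1 fit, the log receptor CPM as a covariate and leaving out each library. The list counts without Y-TTPΔARE MPP3 replicate 4 were added after seeing the data. The fits were also run on simulated counts with planted changes, independent libraries and the same dispersion (spread) for every gene. The real libraries are not that simple, so that run does not bear on the calls reported here. With 24261371 to 39934554 counts per library, counting error was small beside the spread between libraries. Sequences are from RefSeq (GRCm38.p6) and GENCODE M21 (GRCm38), the same build as mm10.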

Additional observations from a re-analysis of the deposited data

Results flagged for a closer look

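In 4 of the 50 sets of 4 or 5 libraries (10 genes in the 5 groups of that size), 1 library lay far from the rest by Dixon's criterion, which chance alone gives in about 1 of 20 sets. Dnmt3a was at 112.0 CPM in M-WT HSC replicate 5 against 82.39 to 87.05 CPM in the other libraries of the group. Dnmt3b was at 101.1 CPM in Y-WT HSC replicate 1 against 92.07 to 92.88 CPM. Tet2 was at 36.56 CPM in Y-WT MPP3 replicate 1 against 51.02 to 52.32 CPM. Tet3 was at 44.86 CPM in Y-TTPΔARE HSC replicate 3 against 37.52 to 37.84 CPM.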

How the results depend on the processing

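The calls of Ezh2 between cell types in both genotypes and with age in TTPΔARE held in every setting tried. The count of the 10 genes called in middle-aged HSCs went from 1 to 2 with DESeq2 and without the count filter, and to 0 with the replicate block, all 24 libraries in the fit or the receptor covariate (0 to 1 leaving out 1 library). In MPP3 cells it went from 0 to 1 with DESeq2 and 4 with all 24 libraries. With age in WT it went from 1 to 2 on the adjusted p alone, and to 0 with the likelihood ratio test, without the filter, with the replicate block, all 24 libraries or the covariate (0 to 2 leaving out 1 library). With age in TTPΔARE it went from 3 to 1 with the likelihood ratio test and the replicate block, and to 2 without the filter (Dnmt3b lost) or with all 24 libraries (Dnmt1 lost; 1 to 3 leaving out 1 library). Between cell types in WT it went from 5 to 4 without the filter or with the covariate (Tet3 lost) and to 6 with all 24 libraries (Dnmt3a added; 4 to 6 leaving out 1 library). Between cell types in TTPΔARE it went from 4 to 2 without the filter or with the covariate (1 to 4 leaving out 1 library). The interaction with age went from 0 to 2 with DESeq2, and that with cell type from 0 to 1 with all 24 libraries (Asxl1). Calls over all genes moved too, in middle-aged HSCs from 298 to 835 with DESeq2, 842 without the filter and 53 with all 24 libraries. In MPP3 cells they went from 326 to 766 with DESeq2 and 1244 with all 24 libraries. In the age interaction they went from 6 to 160 with DESeq2. The cause was not tested in any of these.

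The replicate block left 4 genes called between cell types in TTPΔARE, where same-numbered libraries deviated together. In the other comparisons not all same-numbered libraries did so. With the block Dnmt1 in middle-aged HSCs had an adjusted p of 0.0540, and Ezh2 with age in WT 0.0697.

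Signs turned only for log2 fold changes near 0, none of them called. Dnmt3b in young HSCs was 0.013 with DESeq2, 0.013 with RLE scaling, 0.070 without the filter and 0.040 with all 24 libraries. Tet3 with age in WT was 0.065 and Dnmt3a in the age interaction -0.018 without the filter. Between cell types Tet2 in WT was -0.012 with DESeq2 and -0.013 with RLE scaling, and in TTPΔARE Dnmt3a was 0.059 and Idh1 0.052 with all 24 libraries, and Tet1 -0.0040 without the filter and -0.051 with the covariate. Leaving out 1 library gave ranges across 0 in young HSCs for Dnmt3b (-0.0024 to 0.094), Tet2 (-0.060 to 0.029), Tet3 (-0.15 to 0.0056) and Jak2 (-0.0065 to 0.14), and in middle-aged HSCs for Dnmt3a (-0.18 to 0.013). In MPP3 cells it did so for Ezh2 (-0.065 to 0.095) and Jak2 (-0.16 to 0.10). With age it did so in WT for Tet3 (-0.078 to 0.059) and Idh1 (-0.0035 to 0.11), and in TTPΔARE for Dnmt3a (-0.15 to 0.0081), Asxl1 (-0.080 to 0.018) and Jak2 (-0.10 to 0.025). Between cell types it did so in WT for Tet2 (-0.032 to 0.099), and in TTPΔARE for Dnmt3a (-0.10 to 0.092), Tet1 (-0.037 to 0.11), Tet2 (-0.19 to 0.059) and Asxl1 (-0.024 to 0.17). It did so too for Dnmt3a in the age interaction (-0.084 to 0.11) and Tet1 in that with cell type (-0.17 to 0.047). Of all log2 fold changes under the alternatives, 1389 kept their sign and side of the threshold, 55 fell short of it, 15 passed it and 51 changed sign. With 3 to 5 libraries a group, small differences could not be detected.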
